A study of Rattus norvegicus with 6 samples.

Results

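Transcripts of the proteasome, the multi-subunit protease that degrades ubiquitin-tagged proteins, were measured in the ventral hippocampus of adult and aged rats. The members were the genes whose symbol is Psm followed by a letter from a to g and a number, without the immunoproteasome subunits Psmb8, Psmb9 and Psmb10, and 45 of the 22601 genes in the deposited count table met that rule. Of these, 16 encode subunits of the core particle, 17 encode subunits of the regulatory particle, and 12 encode activators, an inhibitor and assembly chaperones. The animals were male Sprague Dawley rats, an outbred strain: 3 were 4 months old (adult) and 3 were 22 months old (aged), each picked at random from a larger group that had swum in a Morris water maze to score spatial learning. The labels name no transgene or treatment, and each library was 1 animal, so age is the only labelled difference between the groups.

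In the proteasome, proteolysis takes place inside the core particle, a barrel of stacked rings. Alpha subunits (Psma genes) form the outer rings, which gate entry, and beta subunits (Psmb genes) form the inner rings, of which Psmb5, Psmb6 and Psmb7 carry the catalytic sites. The regulatory particle caps the barrel: its base holds a ring of ATPases (Psmc genes) that unfold the substrate, and its non-ATPase subunits (Psmd genes) bind ubiquitin chains and remove them. In neurons the proteasome turns over synaptic proteins and takes part in lasting synaptic change, and a loss of its activity has long been studied in brain ageing.

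The proteasome did not differ detectably between the ages. Of the 44 members tested, 0 were called by edgeR's quasi-likelihood test at a Benjamini-Hochberg adjusted p under 0.05, where 0% of the 14588 genes tested were called. At an unadjusted p under 0.05 there were also 0 members, against 3.45% of all genes tested (1.18% with a higher and 2.27% with a lower aged value). DESeq2 called 0 members as well, against 0.213% of the genes to which it gave an adjusted p. Log2 fold changes, aged minus adult, ran from -0.34 (Psme4) to 0.24 (Psmb11), with a median of -0.0039 over the members and -0.0022 over all genes tested. The 95% interval of the fold change lay within 1.5-fold in either direction for 39 of 44 members and within 2-fold for 43 of 44, the exception being the barely expressed Psmb11. By place in the complex, intervals lay within 1.5-fold for 17 of 17 regulatory particle subunits, 13 of 15 tested core subunits and 9 of 12 activators, inhibitor and chaperones.

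The libraries held between 12476758 and 15689921 counts each. Neuronal and hippocampal markers were detected in all 6 libraries, with the 6 neuronal genes between 4909 and 6952 CPM (counts scaled to a common library size by the TMM method) in sum. Fitted values were lower in aged rats for 1 of 6 neuronal genes, 5 of 5 hippocampal genes (median log2 fold change -0.41), 5 of 5 astrocyte genes (-0.21), 1 of 5 microglial genes and 3 of 3 endothelial genes. The hippocampal genes summed to between 346.7 and 664.7 CPM in adult and between 353.9 and 508 CPM in aged libraries. Markers of tissue outside the hippocampus moved between libraries: the 5 choroid plexus genes summed to 2118 CPM in adult replicate 1 and to between 9.59 and 72.3 CPM in the other 5 libraries, with Otx2 at 0 throughout, and the 5 liver genes lay between 21.6 and 485 CPM in adult and between 23.4 and 239.6 CPM in aged libraries. The 5 skeletal muscle genes ranged from 107 to 339.5 CPM in adult and from 31.7 to 114.5 CPM in aged libraries. The 5 oligodendrocyte genes summed to between 10729 and 16142 CPM in adult and between 6243 and 8392 CPM in aged libraries, with 5 of 5 lower in aged rats. In whole tissue, fewer cells of a type and less RNA per cell cannot be told apart. The part of these differences in proteasome values was not tested.

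**Figure D1:**
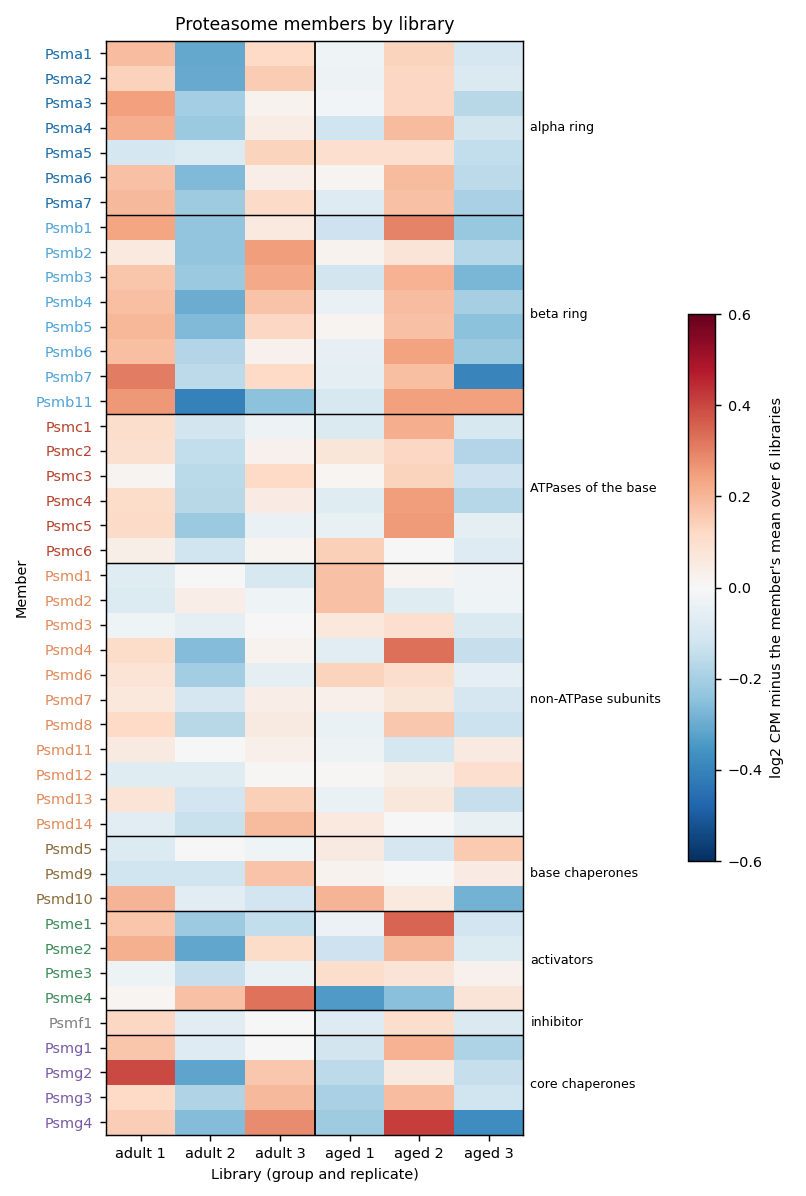
Each row is one of the 44 tested proteasome members, grouped by place in the complex, and each column one library. Colour is log2 CPM minus the member's mean over the 6 libraries. Most core subunits are above their mean in adult replicates 1 and 3 and aged replicate 2 and below it in adult replicate 2 and aged replicate 3, and the pattern does not follow age.

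The core particle was read first through its alpha ring, whose 7 expressed genes stood at similar levels in both ages. Psma7, an alpha ring subunit, stood at 193.8, 145.8 and 183.0 CPM in adult replicates 1 to 3 and at 160.2, 190.8 and 148.0 CPM in aged replicates 1 to 3. Adult replicate 2 and aged replicate 3 were the low libraries and adult replicate 1 and aged replicate 2 the high ones, and the ages overlapped. Adult libraries averaged 174.2 ± 25.2 CPM and aged libraries 166.3 ± 22.0 CPM (SD, n = 3), a log2 fold change of -0.07 ± 0.15 (SE) with a 95% interval of 0.747-fold to 1.22-fold. Psma3 stood at 134.5, 98.6 and 115.3 CPM in adult and at 112.2, 123.7 and 101.1 CPM in aged replicates. It had the same high and low libraries as Psma7, and its log2 fold change was -0.05 ± 0.15. The other 5 tested alpha genes (Psma1, Psma2, Psma4, Psma5 and Psma6) had log2 fold changes between -0.03 and 0.04. Over the ring, 2 of 7 tested genes were higher and 5 lower in aged rats. Of the 7, 0 were called and 0 had ages that did not overlap, against 0% and 7.56% of all genes tested. Psma8, the alpha subunit of the testis proteasome, had 0 to 2 counts per library and was not tested. A count of 0, found in adult replicates 1 and 2, allows up to 0.205 and 0.191 CPM of the library total there, which covers counting error only.

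The catalytic subunits of the beta ring were each lower on average in aged rats by less than the spread between rats of one age. Psmb5, which holds the chymotrypsin-like site, stood at 168.4, 121.9 and 159.6 CPM in adult and at 148.3, 165.4 and 123.8 CPM in aged replicates. Psmb6, which holds the caspase-like site, stood at 141.2, 110.4 and 126.9 CPM in adult and at 120.3, 147.3 and 106.7 CPM in aged replicates. Both were lowest in adult replicate 2 or aged replicate 3 and highest in adult replicate 1 or aged replicate 2, and their log2 fold changes were -0.04 ± 0.16 and -0.02 ± 0.16. Psmb7, which holds the trypsin-like site, stood at 237.1, 172.1 and 208.3 CPM in adult and at 184.1, 217.4 and 145.6 CPM in aged replicates. Its means were 205.8 ± 32.6 and 182.3 ± 35.9 CPM (SD, n = 3). That log2 fold change of -0.18 ± 0.18 was the lowest of the core subunits (95% interval 0.663-fold to 1.18-fold), and aged replicate 3 alone lay below every adult library. It was -0.04 without aged replicate 3, -0.05 without adult replicate 1, -0.29 without adult replicate 2 and -0.31 without aged replicate 2.

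Psmb3, a beta subunit without a catalytic site, stood at 123.6, 94.5 and 128.8 CPM in adult and at 102.0, 127.4 and 91.2 CPM in aged replicates, a log2 fold change of -0.11 ± 0.17. With single libraries left out that value ran from -0.25 (aged replicate 2) to -0.01 (aged replicate 3), and it was -0.24, -0.05 and -0.02 without adult replicates 2, 1 and 3 and -0.06 without aged replicate 1. The remaining beta genes of the ordinary core (Psmb1, Psmb2 and Psmb4) had log2 fold changes between -0.06 and -0.03. In the ring as a whole 0 of 8 tested genes were called and 0 had ages that did not overlap, against 0% and 7.56% of all genes tested. Of the 8, 1 was higher and 7 were lower in aged rats. The higher one was Psmb11, the beta subunit of the thymic proteasome, at 17 to 27 counts per library, whose interval ran from 0.658-fold to 2.12-fold.

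Promoter sequences are shown for members that carry the motif TGACNNNGC, letters found in the antioxidant response element, since Nfe2l1 and Nfe2l2, transcription factors known to drive proteasome genes, bind elements of this kind. In RefSeq promoters of the GRCr8 assembly (250 bases before to 50 after the gene start), 40 of the 45 members had an entry, and 8 of those 40 (20%) held the motif on either strand, against 12.1% of all 33469 promoters. By place in the complex these were 4 of 14 core, 2 of 14 regulatory particle and 2 of 12 other members. The core genes were Psma3, Psmb2, Psmb5 and Psmb6, the regulatory particle genes Psmd1 and Psmd3, and the others Psmd9 and Psme4. The motif CCAAT, the box bound by the factor NF-Y, was present on either strand in 19 of 40 member promoters (47.5%), 9 of 14 in the core and 5 of 14 in the regulatory particle, against 37.5% of all promoters. In Psmb2 the last base of a CCAAT match is also the first base of the TGACNNNGC match. A match describes letters only, not a bound site. The 130 bases before the start are printed for 3 of the genes whose match lies there and outside the annotated gene, with the match in capitals. Psma3, Psmb6 and Psmd9 also have a match in those bases and are not printed. They are from chr5:144254928-144255057 (plus strand) for Psmb2, chr15:32047380-32047509 (minus strand) for Psmb5 and chr14:108706513-108706642 (plus strand) for Psme4, all GRCr8, and in Psme4 the match is on the opposite strand.
Psmb2: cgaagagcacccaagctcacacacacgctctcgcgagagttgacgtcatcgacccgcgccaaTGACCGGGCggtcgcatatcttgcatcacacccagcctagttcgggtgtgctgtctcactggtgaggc
Psmb5: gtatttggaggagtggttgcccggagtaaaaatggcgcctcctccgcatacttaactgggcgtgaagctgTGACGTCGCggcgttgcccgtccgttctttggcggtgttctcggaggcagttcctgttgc
Psme4: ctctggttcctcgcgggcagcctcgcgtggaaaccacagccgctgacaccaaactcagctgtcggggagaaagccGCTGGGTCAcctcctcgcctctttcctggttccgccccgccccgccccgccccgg
The matches begin 68 bases (Psmb2), 60 bases (Psmb5) and 55 bases (Psme4) before the start. Of the 8 genes with the motif, the log2 fold change was -0.05 for Psma3, -0.06 for Psmb2, -0.04 for Psmb5, -0.02 for Psmb6 and -0.34 for Psme4. It was 0.11 for Psmd1, 0.05 for Psmd3 and 0.04 for Psmd9. All of their 95% intervals held 0, and the part of the motif in these values was not tested.

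Nfe2l1 itself stood at 225.0, 268.8 and 199.6 CPM in adult and at 292.7, 272.5 and 246.1 CPM in aged replicates. It encodes the factor that raises proteasome transcription when proteasome activity falls. Its aged values lay above the adult median in all 3 rats but overlapped the adult range, with a log2 fold change of 0.23 ± 0.15 and an adjusted p of 1 (edgeR). The value was 0.14 without adult replicate 3 and 0.35 without adult replicate 2.

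Each ATPase of the base had a value slightly above 0 in aged rats, and none was called. Psmc5, an ATPase of the base, stood at 362.5, 286.7 and 326.0 CPM in adult and at 325.1, 399.4 and 321.4 CPM in aged replicates. Aged replicate 2 was its highest library and adult replicate 2 its lowest. Its means were 325.0 ± 37.9 and 348.6 ± 44.0 CPM (SD, n = 3), a log2 fold change of 0.10 ± 0.15 with an interval of 0.850-fold to 1.35-fold. Psmc6, another ATPase, stood at 99.2, 89.0 and 97.9 CPM in adult and at 106.6, 96.9 and 91.5 CPM in aged replicates, a log2 fold change of 0.04 ± 0.11. It differed from Psmc5 in its highest library, which was aged replicate 1. The other 4 ATPase genes (Psmc1, Psmc2, Psmc3 and Psmc4) had log2 fold changes between 0.01 and 0.03.

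Non-ATPase subunits of the regulatory particle had the narrowest range between libraries of the 4 groups of subunits. Psmd1, the large scaffold subunit of the base, stood at 158.2, 166.1 and 155.8 CPM in adult and at 187.6, 168.4 and 163.8 CPM in aged replicates. Only aged replicate 3 fell within the adult range, and the log2 fold change was 0.11 ± 0.11 (interval 0.907-fold to 1.29-fold), or 0.07 without aged replicate 1. Psmd6, a lid subunit, stood at 151.9, 124.1 and 137.8 CPM in adult and at 157.2, 154.0 and 137.7 CPM in aged replicates. Its log2 fold change of 0.12 ± 0.12 was the highest in the regulatory particle, and its ages overlapped. It was 0.05 without adult replicate 2 and 0.20 without adult replicate 1.

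Psmd4, a ubiquitin receptor, stood at 197.1, 152.2 and 185.3 CPM in adult and at 174.8, 229.7 and 165.7 CPM in aged replicates, with aged replicate 2 above every other library. Its log2 fold change was 0.09 ± 0.17. Psmd14, the deubiquitinase that removes chains at the entrance of the core, stood at 69.2, 66.1 and 82.8 CPM in adult and at 75.5, 72.5 and 70.3 CPM in aged replicates. All aged values of Psmd14 fell within the adult range, and its means were 72.7 ± 8.89 and 72.8 ± 2.64 CPM (SD, n = 3). Of the 11 non-ATPase genes, 8 were higher and 3 lower in aged rats, with log2 fold changes between -0.07 and 0.12. In CPM, Psmd12, a lid subunit named here because of its values, was the one whose ages did not overlap, as in 7.56% of all genes tested. Its adult values ran from 97.8 to 103.4 CPM and its aged values from 103.4 to 110.5 CPM (log2 fold change 0.09 ± 0.10). Adult replicate 3 and aged replicate 1 thus nearly touched.

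**Figure D2:**
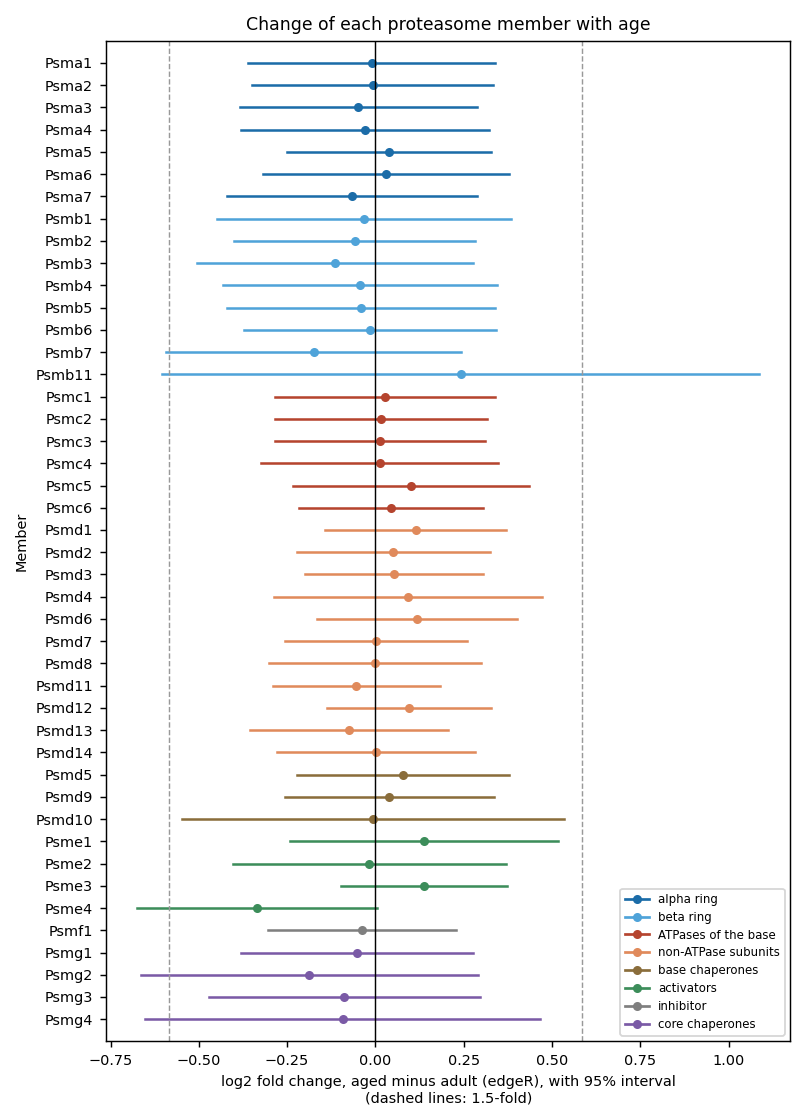
Points are log2 fold changes, aged minus adult, of the 44 tested members from edgeR, and lines are 95% intervals, coloured by place in the complex. All 44 intervals hold 0, and those of Psmb7, Psmb11, Psme4, Psmg2 and Psmg4 reach past the dashed lines that mark a 1.5-fold change.

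Among the activators, which open the gate of the core in place of the regulatory particle, Psme4 and Psme3 had the smallest p, with differences in opposite directions. Psme4, the large monomeric activator found in nuclei, stood at 61.4, 68.9 and 76.3 CPM in adult and at 48.2, 51.2 and 64.3 CPM in aged replicates. Aged replicate 3 lay inside the adult range and the other 2 aged libraries lay below it. The means were 68.9 ± 7.46 and 54.6 ± 8.54 CPM (SD, n = 3), with a log2 fold change of -0.34 ± 0.15, an interval of 0.627-fold to 1.00-fold and an adjusted p of 1 (edgeR, unadjusted p = 0.0522). Psme4 was the member with the smallest p, and it did not pass the threshold. Its value was -0.47 without aged replicate 3 and -0.23 without aged replicate 1. Psme3, the activator of the nucleus that forms rings of its own, stood at 116.6, 108.4 and 116.0 CPM in adult and at 128.3, 125.5 and 121.1 CPM in aged replicates. Every aged value of Psme3 lay above every adult value, and its log2 fold change was 0.14 ± 0.10. In CPM, Psme3 and Psmd12 were the only 2 of 44 tested members whose ages did not overlap (4.55%), both higher in aged rats. Over all genes tested the share was 7.56% in either direction and 3.13% higher in aged rats. None (0 of 44) lay wholly lower in aged rats, against 4.43% of all genes tested. In FPKM, which carries no TMM scaling, Psmd1 also lay wholly higher in aged rats (aged minimum 54.76, adult maximum 54.59). The share of all genes that lay apart was not counted in FPKM.

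Psme1 and Psme2, the interferon-induced pair that form a mixed activator ring, had overlapping ages. Psme1 stood at 64.1, 49.2 and 51.5 CPM in adult and at 55.8, 72.8 and 52.8 CPM in aged replicates, a log2 fold change of 0.14 ± 0.16. Psme2 stood at 46.4, 32.4 and 43.2 CPM in adult and at 36.7, 46.0 and 37.9 CPM in aged replicates, a log2 fold change of -0.02 ± 0.17. The value of Psme2 depended on the scaling for its sign, being 0.0001 with library size scaling. Both genes stood high in adult replicate 1 and aged replicate 2.

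The inhibitor Psmf1 stood at 59.2, 51.9 and 54.3 CPM in adult and at 51.5, 58.5 and 51.1 CPM in aged replicates, a log2 fold change of -0.04 ± 0.12. Core chaperones, which pair alpha subunits at the start of assembly, were lower on average in aged rats in 4 of 4 genes, with 0 called. Psmg2 stood at 20.5, 12.5 and 17.4 CPM in adult and at 13.98, 16.15 and 14.14 CPM in aged replicates, a log2 fold change of -0.19 ± 0.21 that was -0.0076 without adult replicate 1 and -0.36 without adult replicate 2. Psmg3 stood at 27.5, 22.3 and 28.9 CPM in adult and at 22.1, 28.8 and 23.3 CPM in aged replicates, a log2 fold change of -0.09 ± 0.17. For both genes the aged range lay within, or all but within, the adult range.

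Base chaperones assemble the ATPase ring and leave the finished particle. Psmd5 stood at 25.8, 27.2 and 26.8 CPM in adult and at 28.3, 25.4 and 30.4 CPM in aged replicates, a log2 fold change of 0.08 ± 0.13 that was 0.01 without aged replicate 3 and 0.15 without aged replicate 2. Psmd9 stood at 32.3, 32.3 and 39.5 CPM in adult and at 35.6, 35.0 and 36.3 CPM in aged replicates, a log2 fold change of 0.04 ± 0.13. Psmd10, which is also known as the oncoprotein gankyrin, had the lowest values of this group, between 5.45 and 7.65 CPM over the 6 libraries.

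Levels per length were compared with FPKM (fragments per unit of transcript length and of library size), which the authors deposited and which use 1 length for each gene. Over the 6 libraries, the ordinary beta genes averaged from 109.4 FPKM (Psmb2) to 199.2 FPKM (Psmb7). Alpha genes averaged from 36.0 FPKM (Psma3) to 187.2 FPKM (Psma7), and the low place of Psma3 goes with a length of 3166 bases, against 852 to 1174 bases for the other 6. Psmc5 had the highest level of all members at 261.3 ± 30.0 FPKM (SD, n = 6) and Psmc6 the lowest among the ATPases at 40.6 ± 2.07 FPKM. Non-ATPase subunits averaged from 24.4 FPKM (Psmd11) to 137.2 FPKM (Psmd4). The highest level exceeded the lowest by 5.20-fold among the alpha genes, 6.43-fold among the ATPases and 5.61-fold among the non-ATPase subunits. Base and core chaperones were between 8.04 FPKM (Psmg4) and 27.7 FPKM (Psmg3), below every subunit of the ordinary core particle. Psmb11 averaged 0.550 ± 0.114 FPKM (SD, n = 6).

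**Figure D3:**
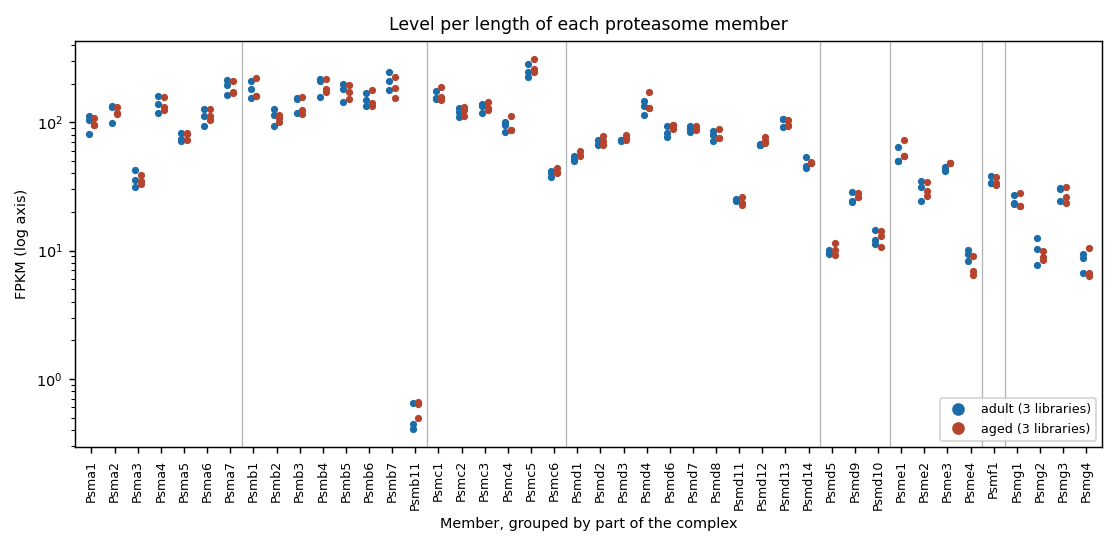
FPKM (log axis) of each tested member in the 3 adult and 3 aged libraries, grouped by place in the complex. Apart from Psmb11 at 0.550 FPKM, mean levels span from 8.04 FPKM for Psmg4 to 261.3 FPKM for Psmc5. Adult and aged points overlap for most members, but not for Psmd1, Psmd12 and Psme3, which are higher in aged libraries. The share of all genes tested that lay apart was counted in CPM only (3.13% higher in aged rats), not in FPKM.

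Core and regulatory particle were then compared with each other, the contrast that asks whether the barrel and its cap shifted together. The median log2 fold change was -0.03 over 15 tested core genes, the barely expressed Psmb11 among them, and 0.03 over 17 regulatory particle genes. Over all genes tested it was -0.0022. Values were lower in aged rats for 12 of 15 core genes and higher for 14 of 17 regulatory particle genes, while 7214 of 14588 genes tested were higher. These counts changed with single libraries, and subunits of a particle were high or low in the same libraries. Core genes higher in aged rats numbered 12 of 15 without adult replicate 1 and 13 of 15 without aged replicate 3, but 2 of 15 without adult replicate 2 or without aged replicate 2. Leaving out adult replicate 1 gave a core median of 0.07, aged replicate 3 gave 0.04, and adult replicate 3 or aged replicate 1 gave 0.01. Leaving out adult replicate 2 gave -0.15, and aged replicate 2 gave -0.13. Regulatory particle genes higher in aged rats numbered 6 of 17 without adult replicate 2 and 7 of 17 without aged replicate 2, with medians of -0.02 and -0.0067, and were at least 12 of 17 without any other single library. Adrm1 and Sem1 also encode regulatory particle subunits, but they fall outside the symbol rule and were not counted with it. Both were lower in aged rats, with log2 fold changes of -0.05 ± 0.14 and -0.19 ± 0.19, and neither was called.

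Summed over its genes, the core stood at 2142, 1602 and 2026 CPM in adult and at 1820, 2130 and 1634 CPM in aged replicates. The regulatory particle stood at 2842, 2523 and 2781 CPM in adult and at 2797, 3002 and 2597 CPM in aged replicates. The ratio of core to regulatory particle was 0.754, 0.635 and 0.728 in adult and 0.651, 0.710 and 0.629 in aged replicates, with means of 0.706 ± 0.0626 and 0.663 ± 0.0418 (SD, n = 3). Adult replicate 2 lay below 2 of the 3 aged libraries, so the ages overlapped. The difference between the means was below the SD of the adult libraries and slightly above that of the aged libraries. With every gene weighted equally, Psmb11 included, core minus regulatory particle was also taken in centred log2 CPM. It was 0.135, -0.118 and 0.064 in adult and -0.068, 0.075 and -0.088 in aged replicates. The difference between the means of the ages was -0.054. Single libraries moved that difference from -0.0003 (adult replicate 1 left out) to -0.127 (adult replicate 2 left out).

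**Figure D4:**
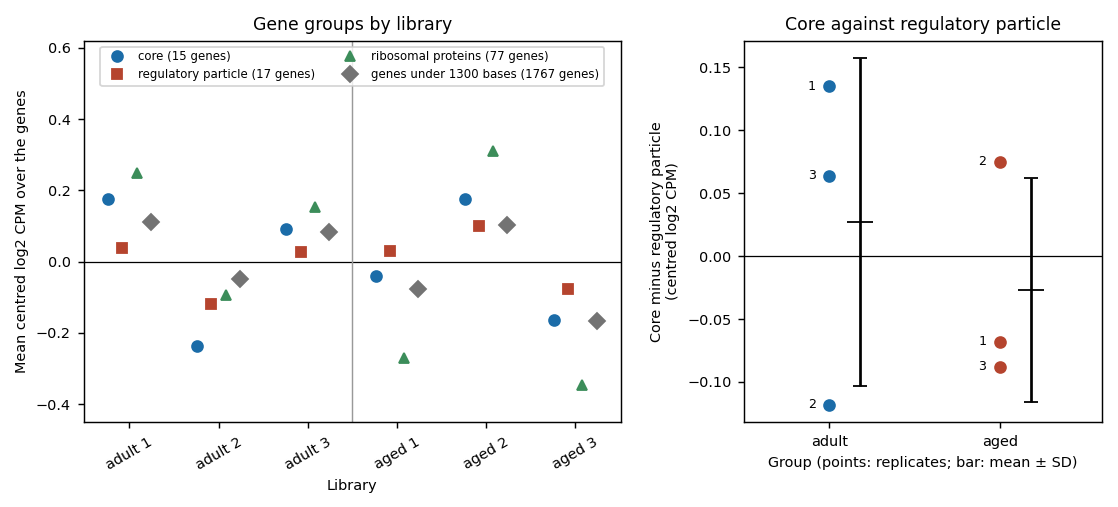
Left, mean centred log2 CPM of core, regulatory particle and ribosomal protein genes and of all genes under 1300 bases in each library. Right, core minus regulatory particle by age, with replicate numbers beside the points and mean ± SD over 3 rats. The core spans 0.411 over the libraries and the regulatory particle 0.218, and the ages overlap on the right.

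The spread of the core between libraries was wider than its difference between ages. The mean centred log2 CPM of the 15 core genes was 0.175, -0.237 and 0.091 in adult and -0.039, 0.175 and -0.165 in aged replicates, a range of 0.411, against a difference between the means of the ages of -0.019. The 17 regulatory particle genes had the same highest and lowest libraries with a range of 0.218. All 15 core genes had their lowest value in adult replicate 2 (11 genes) or aged replicate 3 (4 genes), and 11 had their highest in adult replicate 1 or aged replicate 2. For the regulatory particle these counts were 14 of 17 and 10 of 17. The highest library exceeded the lowest by a median of 1.38-fold for core genes and 1.23-fold for regulatory particle genes. Within the regulatory particle, the ATPases (range 0.319) were closer to the core than the non-ATPase subunits were (0.163).

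Core genes, ribosomal protein genes and short genes were each above their mean in adult replicates 1 and 3 and aged replicate 2, and below it in the other 3 libraries. The 12 activators, inhibitor and chaperones, of median length 1602 bases, had the same signs. They averaged 0.109, -0.131 and 0.075 in adult and -0.072, 0.107 and -0.089 in aged replicates. The short genes include most core genes, so these groups are not separate. The 77 ribosomal protein genes tested averaged 0.248, -0.094 and 0.154 in adult and -0.271, 0.310 and -0.347 in aged replicates on the same centred log2 scale. The 1767 tested genes with a length under 1300 bases averaged 0.111, -0.050 and 0.083 in adult and -0.078, 0.102 and -0.167 in aged replicates. The 5335 genes of 1300 to 3000 bases stayed between -0.032 and 0.039. The median length was 972 bases for tested core genes and 1545 bases for regulatory particle genes, against 3078 bases for all genes tested. Short genes minus genes of 1300 to 3000 bases gave 0.124, -0.085 and 0.084 in adult and -0.050, 0.063 and -0.136 in aged replicates, with the same sign as core minus regulatory particle in all 6 libraries. Over the 44 tested members, whose values share the 6 libraries, the Spearman correlation of log2 fold change with length was 0.225, and over all genes tested it was 0.115. Within the core it was 0.416 (15 genes, Psmb11 included) and within the regulatory particle -0.025 (17 genes). The part of transcript length in the difference between core and regulatory particle was not tested.

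Of the wider pathway list of 36 genes, 33 were matched and tested, Sem1 through its older symbol Shfm1, and Paaf1, Ecpas and Ufd1 were not matched. None was called (0 of 33). Values were higher with age for 18 and lower for 15, and the median log2 fold change was 0.02. Ddi2, the protease that activates Nfe2l1 and is named because of its values, stood at 88.8, 89.0 and 112.4 CPM in adult and at 81.6, 86.8 and 88.1 CPM in aged replicates. Its aged values all lay below its adult values in CPM, as in 4.43% of all genes tested (7.56% in either direction). Its aged maximum and adult minimum differed by less than 1 CPM, and its log2 fold change was -0.18 ± 0.13. Pomp, the maturation factor of the core, stood at 3.55, 1.01 and 4.67 CPM in adult and at 0.865, 2.81 and 1.13 CPM in aged replicates. Its highest libraries were adult replicates 1 and 3 and aged replicate 2, and its log2 fold change was -0.95 ± 0.64. Leaving out aged replicate 2 gave -1.60, adult replicate 3 gave -0.51 and aged replicate 1 gave -0.64. By subgroup, 5 of 10 tested associated and assembly factors, 5 of 7 transcription factors and partners, 4 of 7 shuttling and unfolding factors and 3 of 6 ubiquitin and activation genes were higher in aged rats.

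The immunoproteasome subunits, which replace the catalytic subunits under interferon, were low beside the ordinary ones. Psmb8 over Psmb5, as a ratio of FPKM, lay between 0.00873 and 0.0123 in 5 libraries and at 0.0431 in aged replicate 2, Psmb9 over Psmb6 between 0.0407 and 0.0591, and Psmb10 over Psmb7 between 0.117 and 0.171. Psmb8 stood at 2.05, 1.71 and 2.07 CPM in adult and at 2.33, 9.08 and 1.38 CPM in aged replicates, so its log2 fold change of 1.12 ± 0.65 rested on aged replicate 2 and was -0.06 without it. It was 0.59 with limma-voom, 0.55 with limma on log2(FPKM + 1) and 0.67 on log2(FPKM + 0.1). Psmb9 (log2 fold change -0.02 ± 0.32) and Psmb10 (-0.29 ± 0.19) had overlapping ages. Psmb10 was -0.16 without aged replicate 1 and -0.44 without aged replicate 2.

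Reads of several members could be divided with copies elsewhere in the genome. In the GRCr8 annotation, used for names alone, 19 of the 45 members had a named pseudogene or copy, 52 in all, 10 of them of Psmb3, and 13 members overlapped another gene. How the authors treated reads that fit more than one place, and whether strand was used, is not given in the sources used here. Levels of Psmb3, Psma6 (5 pseudogenes) and Psme3 (4) are therefore uncertain.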

How the data were processed

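The authors deposited raw counts per gene symbol and FPKM values for 6 libraries. Each FPKM equalled count over library total over a fixed gene length, from which lengths were derived. Reads were mapped to Rnor_6.0, per the submitters' processing notes; for the aligner, the counting program and strand use, the entry is: not given in the sources used here. Counts were filtered with edgeR's filterByExpr (14588 genes), scaled by TMM and tested with edgeR 4.0.16 (glmQLFit, glmQLFTest, R 4.3.3), two-sided, age as the only term, Benjamini-Hochberg over all genes tested. Standard errors come from the F statistic. Centred values are log2 CPM (prior count 2) minus the gene's mean. Alternatives were other scalings (RLE, upper quartile, library size alone), other filters, DESeq2 1.42.0, limma-voom (limma 3.58.1), limma on log2(FPKM + 1) and log2(FPKM + 0.1), the replicate number as a block, and leaving out each library. The fits were also run on simulated counts, drawn independently for each gene and library, and no result here rests on that run.

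Members and lists were chosen with earlier results of these data known, and the length classes after seeing the values. Named were the 2 tested members with the smallest p in each group, Psmb5, Psmb6, Psmb7, Psmd4, Psmd14, Psme1 and Psme2, the 5 pathway genes with the smallest p, the immunoproteasome genes and Nfe2l1. A gene that this rule names is not reported here. Others are said to be named for their values, or are named for their place in the complex (Adrm1 and Sem1), or are given in ranges.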

Additional observations from a re-analysis of the deposited data

How the results depend on the processing

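No proteasome or pathway gene was called under any of the 16 alternative fits, 6 of which leave out a library. At an unadjusted p under 0.05 at most 1 member passed in any of them. That member was Psme4, in edgeR without a filter, with the replicate block, without adult replicate 1 and without aged replicate 3. Its smallest unadjusted p was 0.0125 (edgeR, without aged replicate 3). The share of all genes under 0.05 was not counted in those fits. Over all genes, edgeR called 0, DESeq2 31 and limma on log2(FPKM + 1) 2, and edgeR called 0 to 1 when a library was left out (1 without each adult library in turn). With all libraries kept, the core median stayed between -0.0374 and -0.0173 and the regulatory particle median between 0.0233 and 0.0440. With a library left out, the core median ran from -0.1505 to 0.0728 and thus changed sign. The regulatory particle median then ran from -0.0200 to 0.0830. Core minus regulatory particle ran from -0.1271 to -0.0003 in those fits. Deviations of same-numbered libraries had correlations of -0.015, -0.057 and 0.087, and adult replicate 1 was closest to aged replicate 2 (0.118). Correlations this small show no pairing by replicate number, but they cannot exclude one. With the replicate block edgeR called 0 genes, 0 of them members. Of 432 values of 27 single genes under alternatives, 36 in 15 genes changed sign and 0 passed the threshold. Psme2 changed to 0.0001 with library size scaling and to 0.0084 and 0.0089 with FPKM pseudocounts of 1 and 0.1, and Psmb9 to 0.0088 and 0.0111 with these. With a library left out, log2 fold changes ran from -0.18 to 0.0282 for Psma7, -0.15 to 0.0819 for Psma3, -0.17 to 0.0648 for Psmb5, -0.14 to 0.0850 for Psmb6, -0.0028 to 0.0938 for Psmc6, -0.0000 to 0.20 for Psmc5 and -0.0581 to 0.18 for Psmd4. They ran from -0.0618 to 0.11 for Psmd14, -0.0093 to 0.15 for Psmd9, -0.0092 to 0.27 for Psme1, -0.16 to 0.10 for Psme2, -0.10 to 0.0269 for Psmf1, -0.20 to 0.0037 for Psmg3, -0.0619 to 1.55 for Psmb8 and -0.26 to 0.28 for Psmb9. The cause was not tested. With 3 rats per age, the 95% intervals of the members had median bounds of 0.801-fold and 1.25-fold. These bounds are not limits of detection. Calls were adjusted over 14588 genes, where the smallest adjusted p was 0.51 (edgeR), so differences outside these bounds could also go uncalled.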
